A study of Rattus norvegicus with 71 samples.

Results

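The effect of raising 5-fluorouracil from 0.3 to 1 µM was read from 3 libraries of rat cortical cultures exposed to 1 µM and 3 exposed to 0.3 µM, 6 of the 71 libraries of the series. They were chosen by the compound and concentration in their labels, and no measured value entered the choice. The series exposed primary rat cortical cells on microelectrode array plates to 6 compounds and sequenced polyA RNA on day in vitro 12. Dosing began 2 h after plating, and vehicle or compound was renewed on days 5, 7 and 9. For context, 5-fluorouracil at 0 µM (2 libraries) and 0.1 µM (3 libraries) and cytosine arabinoside at 1 and 0.3 µM (3 libraries each) were used. The labels give these cells as rat cortical neurons, and give no strain, sex or age. Each library pooled 2 to 3 wells, and 2 separate cultures were grown. For genes, the main fit estimated the spread behind each p-value over all 71 libraries, those of other compounds included. The labels do not tie libraries to cultures, so that spread reflects only scatter among libraries, which may be technical. At 0.1, 0.3 and 1 µM, the title of replicate 1 carries the prefix GRC321 and those of replicates 2 and 3 the prefix GRC327, so the prefixes were balanced between 1 and 0.3 µM. The labels do not say what the prefix stands for. The same split held for cytosine arabinoside at 1 and 0.3 µM. Both 0 µM libraries carry GRC327. Replicate numbers are not in the labels: they were assigned here in the order of the titles, and values per library are given in that order. Coordinates of genes were taken from the deposited table, and the build behind them is not given in the sources used here.

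5-Fluorouracil is a fluorinated form of the RNA base uracil. Cells convert it to nucleotides that block thymidylate synthase, which makes the DNA precursor dTMP, and that enter RNA and DNA, so dividing cells are its classical target. Cortical cultures hold neurons, which no longer divide, together with astrocytes and oligodendrocyte precursors, which can. The precursors carry the growth factor receptor Pdgfra and the proteoglycan Cspg4, and they turn these genes down while turning on myelin genes such as Mbp and Cnp as they mature.

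Total counts were 9322900 to 13811200 in the 6 libraries, and 6503900 to 16989500 over the 17 libraries used here. The neuronal label held for the neuronal genes, since Map2, a dendritic microtubule protein, had 3639, 2682 and 2908 CPM (counts per library total, scaled by the library's TMM factor) at 1 µM and 3694, 2764 and 2559 CPM at 0.3 µM. Glial RNA was present too: the 17 measured precursor markers summed to 2144, 1790.4 and 1698 CPM at 1 µM and to 3855, 3224 and 3125 CPM at 0.3 µM. Pdgfra, Cspg4 and Sox10 averaged 10.3, 4.74 and 0.566 CPM at 1 µM and 449, 55 and 23.5 CPM at 0.3 µM. The sum thus lay mostly in other markers and does not measure the change in these genes. Of 18 microglial markers 13 were in the table and 1 passed the filter on low counts. The defining microglial genes Aif1, P2ry12 and Ptprc had at most 1 count over the 3 libraries of either group. The summed vascular and fibroblast markers were 12.6, 37.6 and 66.7 CPM at 1 µM and 18, 22.7 and 92.9 CPM at 0.3 µM, highest in replicate 3 of both. The mitochondrial genome took 3.59 ± 1.67% of counts at 1 µM and 3.18 ± 1.48% at 0.3 µM (SD, n = 3 each). A permutation test over the 6 libraries, which took no account of the prefix, found no difference (2-sided exact p = 0.6, where 0.1 is the smallest this design allows). Much of the spread it used lay between the prefixes, so it says little about the concentrations. Within prefixes the shares were 5.49% against 4.8% in GRC321, and 2.38% and 2.89% against 2.82% and 1.91% in GRC327.

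At 1 µM many genes of the oligodendrocyte lineage were lower than at 0.3 µM. Fewer genes of dividing cells and of astrocytes fell, and by less, and a small number of neuronal genes rose modestly. edgeR's quasi-likelihood test with Benjamini-Hochberg adjustment called 405 of 15343 tested genes at an adjusted p under 0.05, which is 2.64%. Of these, 338 were lower at 1 µM (2.2% of the tested genes) and 67 were higher (0.437%). At least 2-fold changes made up 172 of the falls and 4 of the rises. At an unadjusted p under 0.05, 633 of the 15343 were higher and 1088 lower, against which such counts in the lists are to be read. The median log2 fold change over all tested genes was 0.02. The counts depended on single libraries: leaving out 1 of the 6 in turn left 194 to 291 falls and 24 to 43 rises. Without any 1 of them the rises were fewer by over 1.5 times, and the falls were 194 without replicate 1 at 0.3 µM, 199 without replicate 3 at 1 µM and 225 without replicate 2 at 1 µM. GRC327 alone gave 201 falls and 20 rises, and in the GRC321 pair, which that fit did not use, 201 of the 201 falls and 19 of the 20 rises had the same sign, against 57.1% of the genes not called.

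**Figure D1:**
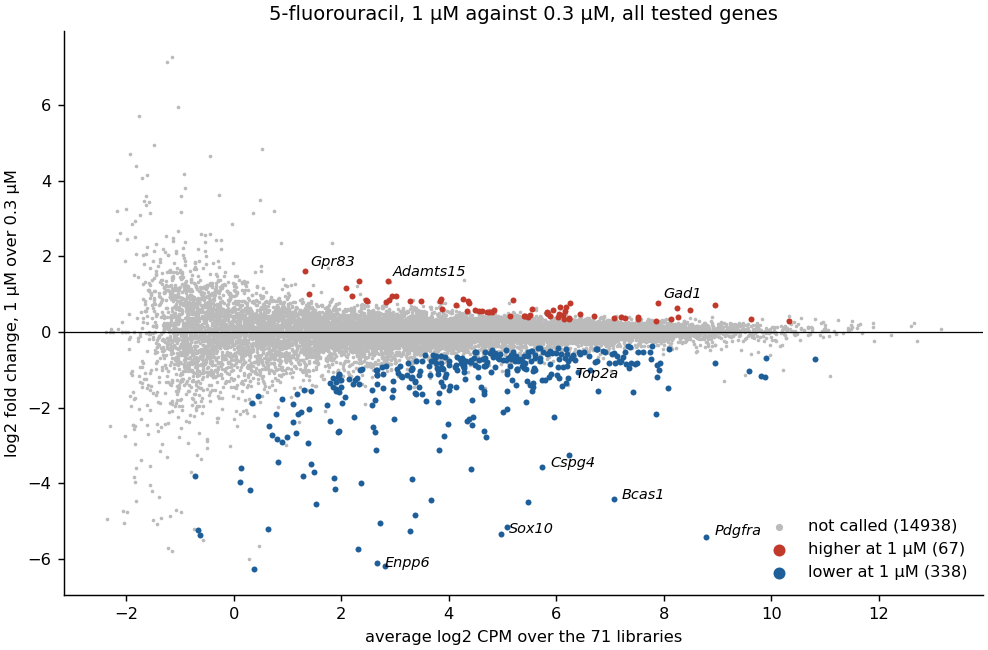
Each point is 1 of the 15343 tested genes, with its average log2 CPM over the 71 libraries on the horizontal axis and the fitted log2 fold change, 1 µM over 0.3 µM, on the vertical axis. The 67 genes called higher (red) stay close to the axis, while the 338 called lower (blue) reach below −6, with Pdgfra the most abundant gene among those below −3.

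Most genes of precursor identity fell. Of 17 tested genes of the precursor list 11 fell and none rose, against 2.2% of all tested genes called lower. The list had a median log2 fold change of −1.06, against 0.02 over all tested genes. A fit with no term for the title prefix called 7. Libraries of the 2 concentrations did not overlap in this direction for 13 of the 17, the 11 called genes among them. The same held for 5.88% of all tested genes. In bulk RNA, fewer cells of a type and less RNA per cell cannot be told apart. Pdgfra (chromosome 14, 35527927 to 35581032), the PDGF receptor through which precursors are kept dividing, had 8.81, 16 and 6.02 CPM at 1 µM, against 544, 382 and 423 CPM at 0.3 µM. Every library at 1 µM was far below every library at 0.3 µM, and within the prefixes the log2 ratios were −5.87 in GRC321 and −5.13 in GRC327. The log2 fold change was −5.43 ± 0.22 (SE; adjusted p = 5.1e-25), which leaves 2.32% of the 0.3 µM level. At the lower concentrations Pdgfra had 662, 553 and 409 CPM at 0.1 µM and 541 and 488 CPM at 0 µM, a range that overlaps the libraries at 0.3 µM.

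The transcription factors and surface genes of the precursors fell to different extents. Sox10 (chromosome 7, 120393254 to 120403524), the factor that specifies the lineage, had 0.871, 0.827 and 0 CPM at 1 µM and 20.5, 20.6 and 29.4 CPM at 0.3 µM, a log2 fold change of −5.35 ± 0.38 (adjusted p = 3e-15). It overlaps the gene model AC096473.3, with which reads could be shared. Cspg4 (chromosome 8, 61532465 to 61567511), which encodes the NG2 proteoglycan, had 2.23, 8.58 and 3.4 CPM at 1 µM and 35.2, 62.4 and 67.6 CPM at 0.3 µM and changed by −3.58 ± 0.25 (adjusted p = 3e-15). Both genes were lower in all 3 libraries at 1 µM than in any at 0.3 µM, and replicate 2 had the highest Cspg4 level of the 1 µM libraries, as it had for Pdgfra. Gpr17, a receptor of committed precursors, had 0.194, 1.34 and 0.0972 CPM against 12.4, 14.5 and 30.4 CPM and changed by −5.16 ± 0.41 (adjusted p = 2.5e-13). Its model lies within Lims2, which fell as well. Without replicate 2 at 1 µM, its highest library there, the Gpr17 change was −6.80. The matrix gene Matn4 had 0, 0.827 and 0 CPM at 1 µM and 5.24, 6.83 and 11.1 CPM at 0.3 µM, a change of −4.84 ± 0.44 (adjusted p = 1.4e-11). All its counts at 1 µM were in replicate 2. Without that library the group is at 0 and the fitted value of −9.35 depends on the prior count, while without replicate 3 at 1 µM it was −4.12. The homeobox factor Nkx2-2 changed by −3.11 ± 0.34 (adjusted p = 1.5e-09).

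Olig2, a lineage factor of precursors and early progenitors, had a smaller fold change than Sox10. It had 32.2, 34.4 and 29.2 CPM at 1 µM and 49.6, 80.1 and 76.4 CPM at 0.3 µM, a log2 fold change of −1.06 ± 0.21 (adjusted p = 0.0012). The receptor phosphatase Ptprz1, which astrocytes and radial glia share with precursors, changed by −0.71 ± 0.15, and the progenitor factor Sox6 by −0.89 ± 0.20 (adjusted p = 0.0014 and 0.0036). C1ql1, a secreted complement-like protein, changed by −1.92 ± 0.33 (adjusted p = 0.00011). The Sox6 call was lost without replicate 1 at 0.3 µM (adjusted p = 0.062) and without replicate 2 at 1 µM. Among the 6 members not called, Olig1 had a log2 fold change of −0.61 ± 0.21 and the proteoglycan Vcan one of −0.32 ± 0.14 (adjusted p = 0.14 and 0.33). The whole list left 9 to 11 called members when any 1 library was left out.

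**Figure D2:**
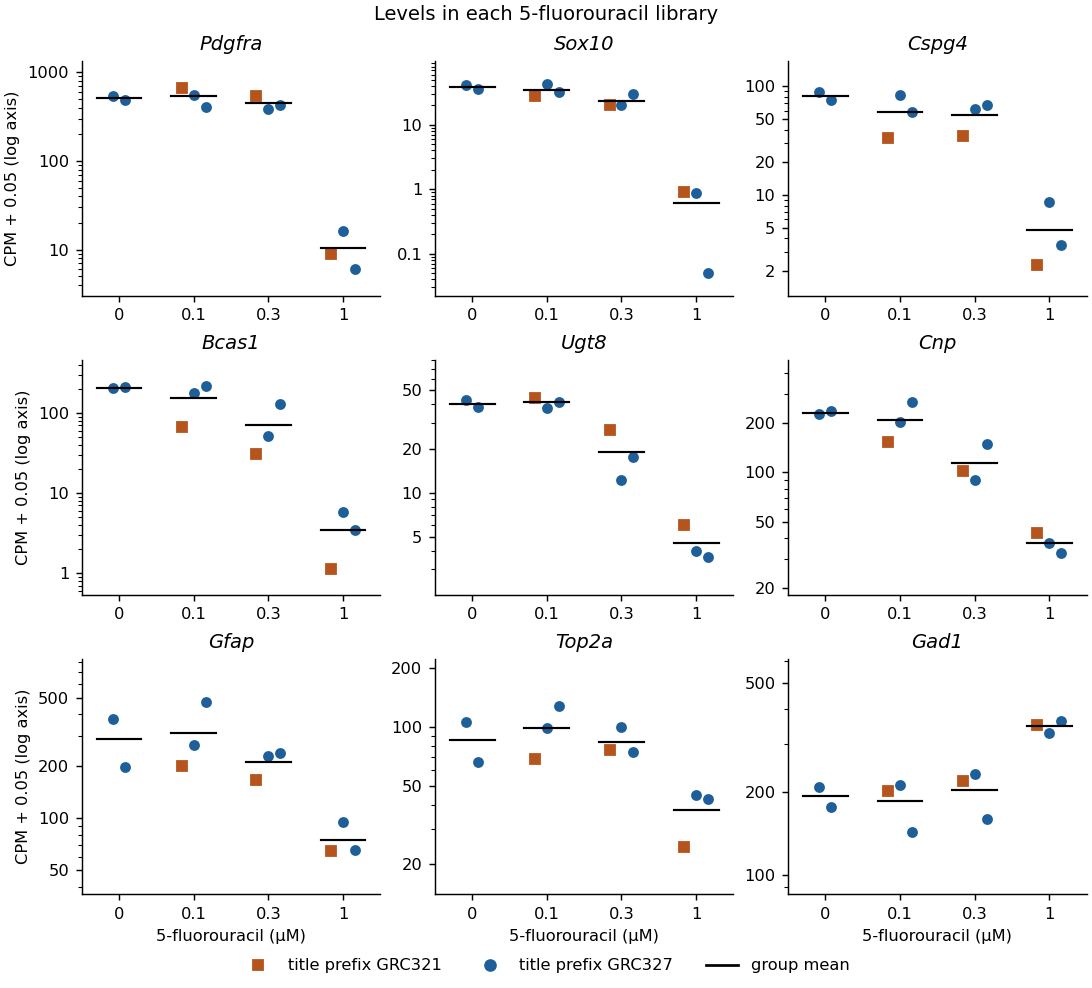
Level of 9 genes in every 5-fluorouracil library, as CPM + 0.05 on a log axis, against concentration in µM, with squares for title prefix GRC321, circles for GRC327 and a bar for the group mean. For Pdgfra, Sox10, Cspg4, Bcas1, Ugt8 and Cnp all 3 libraries at 1 µM lie below every other library, and each Ugt8 library at 0.3 µM lies below each at 0 and 0.1 µM, where those of Pdgfra overlap.

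Genes of maturing oligodendrocytes and myelin fell in the same comparison, 15 of 25 tested with none higher, against 2.2% of all tested genes called lower. Their median log2 fold change was −1.58. Libraries of the 2 concentrations did not overlap in this direction for 17 of the 25, the 15 called genes among them, against 5.88% of all tested genes. Among genes of the newly forming oligodendrocyte, Bcas1 (chromosome 3, 167957994 to 168033458) had 1.07, 5.69 and 3.4 CPM at 1 µM and 30.9, 51.3 and 128 CPM at 0.3 µM, a log2 fold change of −4.41 ± 0.30 (adjusted p = 1.2e-15). Its levels at 0.3 µM were spread widely, highest in replicate 3, yet the lowest of them was above every value at 1 µM. Plxnb3, a semaphorin receptor, had 0.581, 1.65 and 0.583 CPM against 8.13, 17.7 and 37.9 CPM and changed by −4.49 ± 0.44 (adjusted p = 1.5e-10). Enpp6, a choline phosphodiesterase of newly formed oligodendrocytes, was 95.4-fold lower at 1 µM (95% interval 16.8 to 3799, 1 against 113 counts over the 3 libraries). Bmp4, a secreted signal that restrains maturation, was 44.2-fold lower at 1 µM (95% interval 14.8 to 216, 3 against 157 counts over the 3 libraries). These intervals cover counting error only.

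Cnp (chromosome 10, 88490798 to 88497357), a myelin phosphodiesterase, had 43.3, 37.4 and 32.4 CPM at 1 µM and 102, 90.4 and 148 CPM at 0.3 µM and changed by −1.58 ± 0.20 (adjusted p = 7.6e-08). Ugt8, which makes the galactolipids of myelin, had 6, 3.93 and 3.6 CPM against 26.9, 12.2 and 17.5 CPM and changed by −2.04 ± 0.26, and Myrf, the factor that switches on myelin genes, by −1.35 ± 0.20 (adjusted p = 1.1e-07 and 2.8e-06). The groups did not overlap for any of these 3. Mbp, myelin basic protein, had 9.39, 15.2 and 15.9 CPM at 1 µM and 27.1, 25.1 and 49.1 CPM at 0.3 µM, a change of −1.34 ± 0.36 (adjusted p = 0.025). The Mbp call held in 1 of 6 fits with a library left out, and its adjusted p reached 0.26 without replicate 3 at 0.3 µM. Mog, a late myelin surface protein, had a log2 fold change of 0.02 ± 0.15 (adjusted p = 0.99). Opalin and Gjb1 were below the count filter. Over the fits with 1 library left out, 12 to 15 members were called.

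Few genes were called in the step from 0.1 to 0.3 µM by the same test. It called 5 genes of 15343, 0.0326%, all lower at 0.3 µM, among them the peptidase gene Cpm and, from the maturing list, Ugt8, Myrf and Bcas1. None was higher, while DESeq2 called 13 lower and none higher and limma 4 lower and none higher. At an unadjusted p under 0.05, 225 of the 15343 were higher and 413 lower. The maturing list had a median log2 fold change of −0.99 in this lower step, with 4 of 25 called lower, against −1.58 in the upper step. The precursor list had −0.29, with no member called, against −1.06. The 5 calls were lost without replicate 3 at 0.1 µM and without replicate 1 or replicate 2 at 0.3 µM, where the test called none. Ugt8 had 44.1, 38 and 41.6 CPM at 0.1 µM, and its log2 fold change, 0.3 µM over 0.1 µM, was −1.18 ± 0.22 (adjusted p = 0.013). The 2 steps share the 0.3 µM libraries, with opposite sign. Set against the 0 µM libraries, Pdgfra had log2 fold changes of −0.30 ± 0.20 at 0.3 µM and −5.73 ± 0.23 at 1 µM, and Ugt8 of −1.33 ± 0.25 and −3.37 ± 0.28 (adjusted p = 1, 5e-25, 0.0096 and 3e-13).

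Whether a gene changed more between 0.3 and 1 µM than between 0.1 and 0.3 µM was tested as a contrast of its own. It called 39 genes, 0.254% of those tested, all with the more negative change in the upper step. None had the more positive change in edgeR, where 150 of the 15343 did at an unadjusted p under 0.05, against 2 called by DESeq2 and 1 by limma. Of the 39, 6 were on the precursor list and 4 on the maturing list, and these were the only listed genes among them. Pdgfra changed by −5.43 ± 0.22 in the upper step and by −0.27 ± 0.17 in the lower one, a difference of −5.16 ± 0.30 (adjusted p = 5.5e-18). Cspg4 had the values −3.58 and −0.06, a difference of −3.52 ± 0.37 (adjusted p = 1.2e-08). For Sox10 the difference was −4.799 ± 0.52, for Gpr17 −4.26 ± 0.57, and for Bcas1, which was already lower at 0.3 than at 0.1 µM, −3.27 ± 0.43 (adjusted p = 1.4e-08, 3.4e-06 and 2.1e-06).

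The myelin genes Cnp, Ugt8 and Myrf did not pass this test, with differences of −0.72 ± 0.32, −0.86 ± 0.40 and −0.42 ± 0.32 (adjusted p = 1 each). The 95% interval for Ugt8 ran from −1.68 to −0.05, which leaves out a difference of the size seen for Pdgfra. Other genes that passed, picked for mention after their values were seen, were the neuregulin receptor Erbb3, with mean levels of 7.83, 7.67 and 0.891 CPM at 0.1, 0.3 and 1 µM, the peptide receptor Calcrl, with 95, 71.3 and 7.42 CPM, and the lineage factor Sox8, with 77.2, 44.8 and 9.47 CPM. The count of 39 fell to 18 without replicate 3 at 0.3 µM and to 25 without replicate 1 at 0.3 µM.

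**Figure D3:**
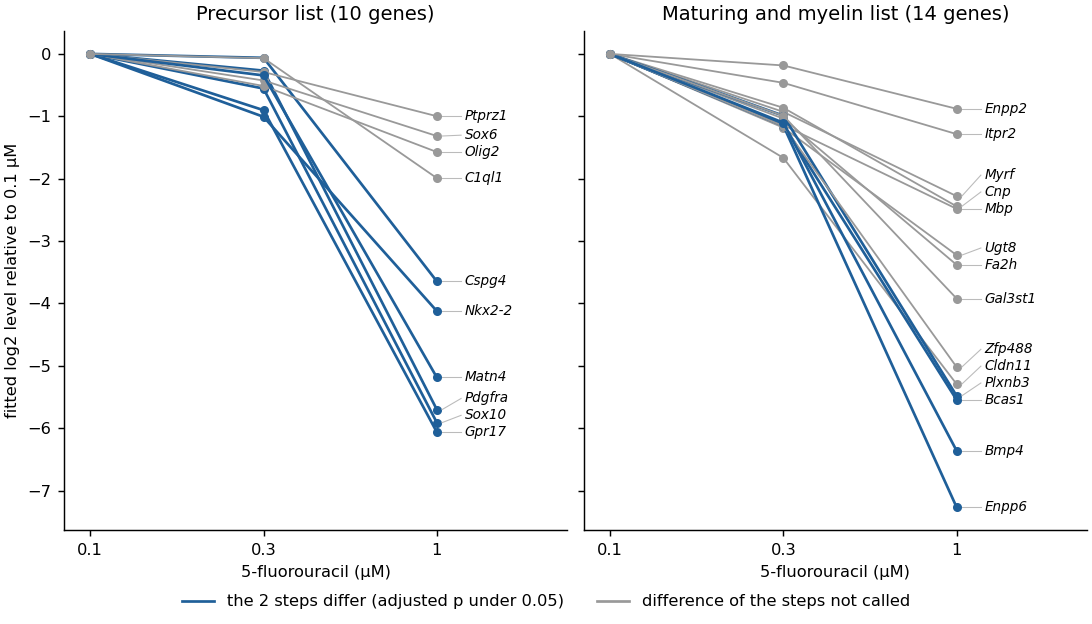
Fitted log2 level relative to 0.1 µM for 10 of the 11 precursor genes (left) and 14 of the 15 maturing and myelin genes (right) called lower at 1 than at 0.3 µM, with blue lines where the 2 steps differed at an adjusted p under 0.05. Pdgfra and Cspg4 run nearly flat to 0.3 µM and then drop, while lines such as Ugt8 and Cnp descend over both steps.

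Astrocyte genes fell in part. Of 21 tested, 5 fell and none rose, against 2.2% of all tested genes called lower, with a median of −0.42. At an unadjusted p under 0.05, 10 were lower. Gfap, the intermediate filament of astrocytes, had 64.4, 95.5 and 65.5 CPM at 1 µM and 167, 229 and 239 CPM at 0.3 µM, a log2 fold change of −1.48 ± 0.38 (adjusted p = 0.015). The water channel Aqp4 had 587, 285 and 324 CPM against 861, 631 and 889 CPM and changed by −1.02 ± 0.29 (adjusted p = 0.037). The groups did not overlap for either gene. The gap junction gene Gja1 changed by −0.82 ± 0.20, glutamine synthetase Glul by −0.69 ± 0.18 and the glial factor Sox9 by −0.76 ± 0.17 (adjusted p = 0.011, 0.02 and 0.0036). The Sox9 ranges overlapped, as replicate 1, from GRC321, was the highest in each group. Slc1a3, a glutamate transporter, had 612, 350.3 and 368 CPM at 1 µM and 689, 466 and 518 CPM at 0.3 µM, a change of −0.35 ± 0.18 that did not pass (adjusted p = 0.45). The fit with no prefix term called 0 members, the 5-fluorouracil libraries alone 2 and GRC327 alone 3. These calls also rested on single libraries: the number of called members was 1 without replicate 1 at 0.3 µM and without replicate 2 or replicate 3 at 1 µM, 2 without replicate 3 at 0.3 µM, and up to 6 otherwise. The largest adjusted p so reached were 0.16 for Gfap without replicate 3 at 1 µM, 0.31 for Aqp4 and 0.13 for Gja1 without replicate 2 at 1 µM, 0.26 for Glul without replicate 3 at 0.3 µM and 0.091 for Sox9 without replicate 1 at 0.3 µM.

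Of 24 genes of glial progenitors, Notch signalling and the Id factors 3 fell and none rose, with a median of −0.45. Over all tested genes 2.2% were called lower. The stem cell factor Sox2 changed by −0.93 ± 0.14, the receptor Notch1 by −1.11 ± 0.19 and the Notch ligand Dll3 by −2.77 ± 0.73 (adjusted p = 7.3e-06, 6e-05 and 0.021). Sox2 had 56.8, 27.4 and 24.2 CPM at 1 µM and 116, 46.4 and 48.5 CPM at 0.3 µM, and its replicate 1 from GRC321 was the highest in both groups, so the ranges overlapped although it was lower within each prefix. Notch1 had 17.2, 28.1 and 29.7 CPM against 45.5, 47 and 66.7 CPM, with no overlap. Dll3 had at most 2.38 CPM in any of the 6 libraries, and without replicate 3 at 0.3 µM its adjusted p was 0.41. Of 13 genes of inflammation and reactive glia 3 fell and none rose, with a median of −0.85. These were the lipid receptor S1pr3 at −1.46 ± 0.20, the cytokine receptor Osmr at −1.80 ± 0.41 and the copper carrier Cp at −0.81 ± 0.23 (adjusted p = 1.1e-06, 0.0054 and 0.042). S1pr3 had 14.8, 15.6 and 12.6 CPM at 1 µM and 41.7, 28.7 and 47.5 CPM at 0.3 µM, with no overlap. Cp overlaps the gene Hps3. The Osmr call was lost without replicate 1 at either concentration, and the Cp call without any 1 of the 6 libraries, where adjusted p reached 0.099 and 0.39.

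Of 27 genes of the extracellular matrix and growth factors 3 fell and none rose, against 2.2% of all tested genes called lower. The list's median was −0.32. Igfbp5, an insulin-like growth factor binding protein, had 454, 299 and 298 CPM at 1 µM and 894, 631 and 786 CPM at 0.3 µM, a change of −1.15 ± 0.15 (adjusted p = 4.1e-07) with no overlap. Brevican, Bcan, a matrix proteoglycan of glia, changed by −0.89 ± 0.18, and the growth factor Fgf2 by −1.02 ± 0.28 (adjusted p = 0.0012 and 0.035). Fgf2 overlaps the gene Nudt6, and without replicate 3 at 1 µM its adjusted p was 0.26. None of 11 vascular and fibroblast genes or 7 choroid plexus and ependymal genes was called by edgeR, DESeq2 or limma, although 2 of the vascular genes were lower at an unadjusted p under 0.05. Their medians were −0.52 and −1.27, with most of the choroid genes near 0 counts. The transthyretin gene Ttr, for example, had 0, 0 and 0.583 CPM at 1 µM and 0.214, 0 and 2.45 CPM at 0.3 µM.

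**Figure D4:**
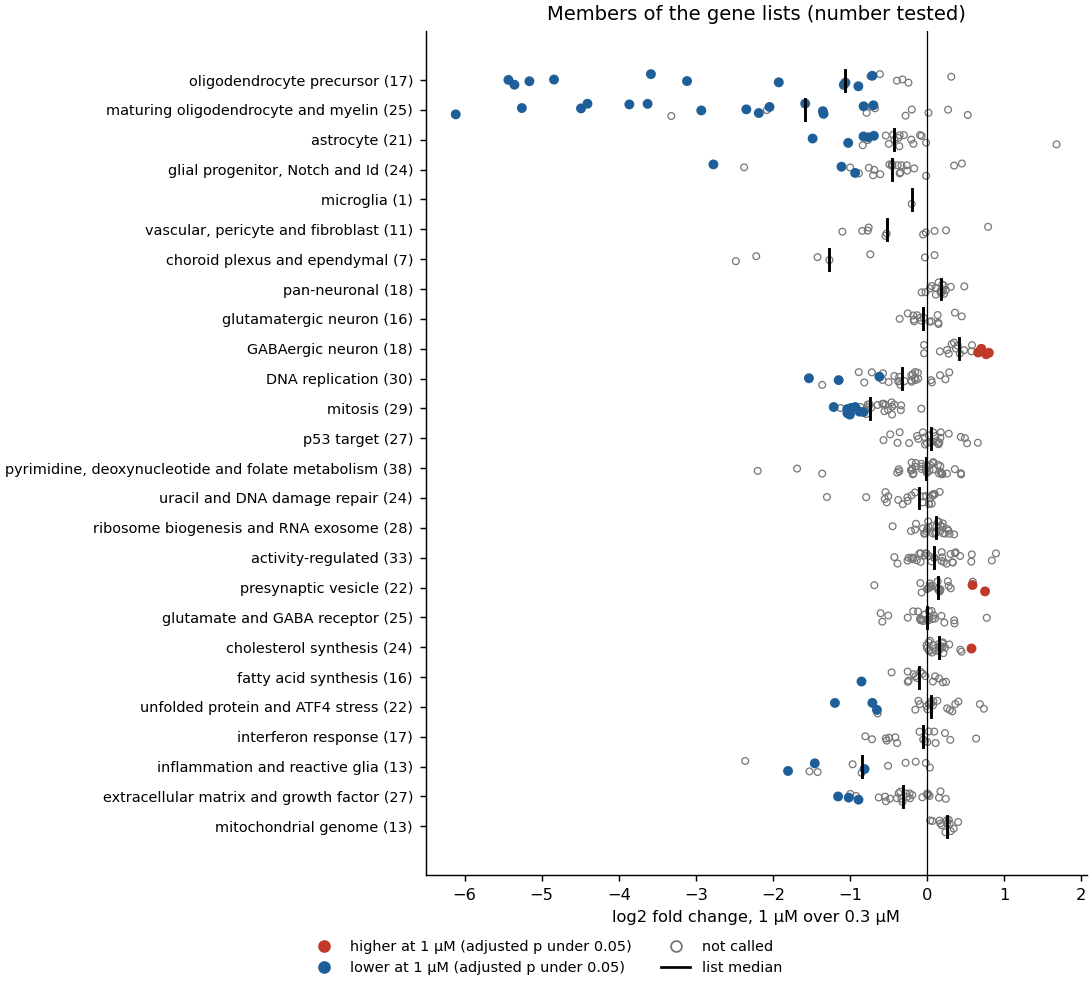
Log2 fold change, 1 µM over 0.3 µM, of every tested member of the 26 gene lists, with filled points for called genes (blue lower, red higher), open points for genes not called and a bar for the list median. The precursor and the maturing list reach below −4, the mitosis list lies wholly below 0, and called rises appear in the GABAergic, presynaptic and cholesterol lists.

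Several genes of dividing cells fell. All 29 tested genes of the mitosis list had a negative log2 fold change, with a median of −0.74. Of them 8 fell, against 2.2% of all tested genes, while 20 were lower at an unadjusted p under 0.05. Top2a (chromosome 10, 86901007 to 86932155), the topoisomerase that untangles chromosomes, had 24.4, 45 and 42.9 CPM at 1 µM and 76.6, 100.1 and 74.8 CPM at 0.3 µM, a change of −1.21 ± 0.21 (adjusted p = 0.00014). Kif11 (chromosome 1, 256035866 to 256088300), the motor that separates the spindle poles, had 14.2, 18.2 and 19.9 CPM against 37, 41 and 28.1 CPM and changed by −1.03 ± 0.18 (adjusted p = 6.7e-05). The groups did not overlap for either, and the Top2a log2 ratios were −1.63 in GRC321 and −0.99 in GRC327. The chromosome motor Kif4a changed by −1.03 ± 0.22, the kinetochore protein Cenpf by −1.0 ± 0.22, the spindle protein Aspm by −0.87 ± 0.21 and the checkpoint kinase Bub1 by −0.93 ± 0.24 (adjusted p = 0.0025, 0.0036, 0.011 and 0.019). The 2 others called were Nusap1 and Ttk. The summed precursor and astrocyte markers moved with these genes: the precursor list summed to the values given above, and the astrocyte list to 4004, 3051 and 3059 CPM at 1 µM and to 4757, 4522 and 5569 CPM at 0.3 µM. Pdgfra, Cspg4 and Sox10 made up little of the precursor sum and fell further than it. The part of these cells in the falls was not tested. Mki67, the usual marker of cycling cells, had a change of −0.58 ± 0.20 that did not pass (adjusted p = 0.15). Between 3 and 10 members were called when 1 library was left out, with 3 without replicate 1 or replicate 2 at 0.3 µM and 5 without replicate 2 or replicate 3 at 1 µM. Top2a and Kif11 were called in all 6 such fits, Kif4a in 5, Cenpf in 4, Aspm in 3, Bub1 and Nusap1 in 2 each and Ttk in 1. GRC327 alone called 1 member, the 5-fluorouracil libraries alone 5, and the fit with no prefix term 3.

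In the DNA replication list 3 of 30 tested genes fell and none rose, against 2.2% of all tested genes called lower. The list's median was −0.32. The replication initiator Mcm10 had 1.94, 4.86 and 3.5 CPM at 1 µM and 8.56, 11 and 8.85 CPM at 0.3 µM, a change of −1.53 ± 0.31 (adjusted p = 0.0014). Pold1 and Pole, the catalytic subunits of the replicative DNA polymerases, changed by −1.15 ± 0.29 and −0.62 ± 0.16 (adjusted p = 0.016 and 0.015). Without single libraries each of the 3 missed the threshold, with adjusted p of 0.08 for Mcm10 without replicate 1 at 0.3 µM, 0.21 for Pold1 without replicate 3 at 1 µM and 0.095 for Pole without replicate 3 at 0.3 µM.

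To show what the promoters of the mitotic genes that fell hold, the starts of the 4 with the smallest p are printed. In mammals, the cell cycle homology region (TTTGAA, on either strand, close to the start) and CCAAT boxes are known elements of genes switched on late in the cell cycle. Each sequence below runs 5′ to 3′ on the gene's strand from 170 bases before to 30 bases after the RefSeq transcription start (GRCr8), with both motifs, on either strand, in capitals.
Kif11, chr1:244536697-244536896, strand +: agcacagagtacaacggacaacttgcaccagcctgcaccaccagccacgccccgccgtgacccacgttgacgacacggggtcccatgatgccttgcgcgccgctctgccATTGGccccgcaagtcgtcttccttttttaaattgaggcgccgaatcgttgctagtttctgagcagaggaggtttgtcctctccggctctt
Top2a, chr10:84473064-84473263, strand -: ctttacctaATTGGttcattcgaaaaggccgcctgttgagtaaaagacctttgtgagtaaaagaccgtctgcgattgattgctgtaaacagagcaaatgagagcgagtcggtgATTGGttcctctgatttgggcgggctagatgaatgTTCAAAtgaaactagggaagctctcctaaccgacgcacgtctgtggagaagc
Kif4a, chrX:69761713-69761912, strand +: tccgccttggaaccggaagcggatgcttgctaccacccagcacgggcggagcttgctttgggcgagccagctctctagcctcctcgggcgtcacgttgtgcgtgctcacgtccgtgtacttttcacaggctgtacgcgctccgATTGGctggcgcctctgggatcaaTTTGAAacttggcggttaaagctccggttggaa
Cenpf, chr13:103760857-103761056, strand -: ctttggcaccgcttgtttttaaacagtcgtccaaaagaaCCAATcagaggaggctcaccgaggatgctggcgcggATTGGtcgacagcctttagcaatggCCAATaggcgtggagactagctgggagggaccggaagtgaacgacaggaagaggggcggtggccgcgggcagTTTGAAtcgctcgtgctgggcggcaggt
In the last 100 bases of the RefSeq promoter windows, which end 50 bases after the start, TTTGAA stood in 6 of the 8 mitotic genes that fell and in 10 of the 17 mitotic genes with a sequence that were not called. It stood in 5.02% of all 27457 promoters in that window. Kif11 has none in the stretch shown and 1 CCAAT box, in reverse. In the same 100 bases CCAAT stood in 3 of the 8, in 6 of the 17 and in 12.5% of all promoters. Over the whole 300 bases TTTGAA stood in 6 of the 8, in 13 of the 17 and in 18.1% of all promoters, and CCAAT in 7 of the 8, in 12 of the 17 and in 37.7%. These matches describe letters only.

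None of 18 pan-neuronal genes was called by edgeR, DESeq2 or limma (1 was higher at an unadjusted p under 0.05), with a median of 0.18. Map2, whose values are given above, changed by 0.04 ± 0.13, neuronal tubulin Tubb3 by 0.19 ± 0.17 and the nuclear protein Rbfox3 by 0.15 ± 0.30 (adjusted p = 0.97, 0.79 and 0.94). None of 16 glutamatergic genes was called by any of the 3 tools (2 higher at an unadjusted p under 0.05, median −0.06). The vesicular glutamate transporter Slc17a7 had 244, 222 and 269 CPM at 1 µM and 284, 236 and 307 CPM at 0.3 µM, ranges that overlap.

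Of 18 tested GABAergic genes 4 rose and none fell, with a median of 0.41, against 0.437% of all tested genes called higher. Gad1 (chromosome 3, 56861396 to 56902158), which makes GABA, had 351, 328 and 363 CPM at 1 µM and 219, 234 and 160.1 CPM at 0.3 µM, a change of 0.77 ± 0.16 (adjusted p = 0.0013). Gad2, a further GABA-making enzyme, had 648, 520.0 and 647 CPM against 411, 393 and 310.4 CPM and changed by 0.71 ± 0.14 (adjusted p = 0.0011). Neither gene's groups overlapped. Over the list, 8 of the 18 did not overlap in this direction, against 3.49% of all tested genes. The vesicular GABA transporter Slc32a1 changed by 0.67 ± 0.16 and the interneuron factor Maf by 0.80 ± 0.17 (adjusted p = 0.0093 and 0.0029). The pan-neuronal list summed to 24944, 18440.0 and 18511 CPM at 1 µM and to 20923, 17822 and 16066 CPM at 0.3 µM, and its part in these rises was not tested. Without replicate 1 at 1 µM, 2 members were called, and with no prefix term 1. The largest adjusted p were 0.12 for Slc32a1, without replicate 1 at 0.3 µM, and 0.061 for Maf, without replicate 1 at 1 µM. The interneuron peptide Sst had 86.4 CPM at 1 µM and 87.9 CPM at 0.3 µM on average, and was not called.

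Of 22 presynaptic vesicle genes 2 rose, against 0.437% of all tested genes called higher. Complexin 1, Cplx1, which clamps vesicle fusion, had 546, 510.2 and 589 CPM at 1 µM and 326.9, 382 and 383 CPM at 0.3 µM, a change of 0.59 ± 0.10 (adjusted p = 8.5e-05). The vesicle SNARE Vamp1 had 32.8, 37.4 and 24.9 CPM against 21.7, 15.1 and 19.8 CPM and changed by 0.75 ± 0.14 (adjusted p = 0.00026). Both calls held in all 6 fits with a library left out. None of 33 activity-regulated genes was called by edgeR, DESeq2 or limma, and none passed an unadjusted p under 0.05 either, with a median of 0.09. The secretory granule gene Scg2 and the kinase Sik1, the members with the smallest p, had changes of 0.37 ± 0.19 and 0.33 ± 0.18 (adjusted p = 0.49 and 0.52). None of 25 glutamate and GABA receptor genes was called by edgeR, where 1 was higher and 2 lower at an unadjusted p under 0.05, while DESeq2 called 1 higher and limma none.

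The drug's own pathway gave no call. None of 38 tested genes of pyrimidine, deoxynucleotide and folate metabolism was called by edgeR, DESeq2 or limma (2 higher and 3 lower at an unadjusted p under 0.05), with a median of −0.01. Thymidylate synthase, Tyms, the enzyme the drug blocks, had 19.8, 7.65 and 11.7 CPM at 1 µM and 23.1, 14.2 and 12 CPM at 0.3 µM, a change of −0.36 ± 0.20 (adjusted p = 0.53). The activating enzymes Umps and Tk1 changed by 0.00 ± 0.19 and −0.15 ± 0.24, the phosphorylase Tymp by −0.07 ± 0.14, the degrading enzyme Dpyd by −0.01 ± 0.25 and the dUTP-clearing enzyme Dut by −0.39 ± 0.23, with adjusted p from 0.59 to 1. Upp1, a uridine phosphorylase, had 0, 0.103 and 0.194 CPM at 1 µM and 0.856, 0.253 and 0.409 CPM at 0.3 µM, a handful of counts, and did not pass (adjusted p = 0.36). Dut and Tyms were highest in replicate 1, from GRC321, at both concentrations.

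None of 27 targets of p53, the factor activated by DNA damage, was called by edgeR, DESeq2 or limma (2 higher at an unadjusted p under 0.05), with a median of 0.06. Pmaip1, a pro-apoptotic target, had 22.8, 9 and 12.6 CPM at 1 µM and 18.4, 7.75 and 4.22 CPM at 0.3 µM, a change of 0.66 ± 0.26 (adjusted p = 0.26), with overlapping ranges. The growth arrest gene Gadd45a had 13.3, 9.72 and 11.7 CPM against 8.02, 8.6 and 8.04 CPM, ranges that do not overlap, yet its change of 0.49 ± 0.22 did not pass (adjusted p = 0.34). Of 24 genes of uracil and DNA damage repair none was called by the 3 tools, and 5 were lower at an unadjusted p under 0.05. Fancd2, of the crosslink repair pathway, and the checkpoint kinase Chek2 had changes of −0.52 ± 0.20 and −0.79 ± 0.30 (adjusted p = 0.23 and 0.23). None of 28 genes of ribosome biogenesis and the RNA exosome was called (1 higher at an unadjusted p under 0.05), with a median of 0.11. The 13 genes of the mitochondrial genome had a median of 0.26, and none was called or passed an unadjusted p under 0.05.

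Over all tested genes 2.2% were called lower and 0.437% higher. Among metabolic lists, 3 of 22 genes of the unfolded protein and ATF4 stress list fell and none rose. The cystine transporter Slc7a11 changed by −1.19 ± 0.28 and the serine synthesis enzymes Psat1 and Phgdh by −0.71 ± 0.18 and −0.65 ± 0.16 (adjusted p = 0.0059, 0.016 and 0.0086). Slc7a11, which astrocytes also express, had 722, 329 and 301 CPM at 1 µM and 1156, 752 and 1024 CPM at 0.3 µM, with no overlap. The list's median was 0.05. The lipid synthesis factor Srebf1 was the 1 gene of 16 on the fatty acid list to fall, with a change of −0.86 ± 0.18, and the mevalonate enzyme Pmvk the 1 of 24 on the cholesterol list to rise, with 0.57 ± 0.15 (adjusted p = 0.0024 and 0.025). Srebf1 overlaps the gene Rai1. All 5 calls were lost without at least 1 library, where the adjusted p reached 0.11, 0.19 and 0.12 for Slc7a11, Phgdh and Srebf1 without replicate 3 at 1 µM, 0.19 for Psat1 without replicate 3 at 0.3 µM and 0.39 for Pmvk without replicate 1 at 1 µM. None of 17 interferon response genes was called by the 3 tools (3 lower at an unadjusted p under 0.05). The antigen presentation gene B2m had a change of −0.52 ± 0.21 (adjusted p = 0.27).

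Several of the largest falls lay outside the lists. Pnlip, a pancreatic lipase by name, was 98.7-fold lower at 1 µM (95% interval 17.4 to 3932, 1 against 117 counts over the 3 libraries). The homeobox gene Irx1 was 48.9-fold lower at 1 µM (95% interval 8.44 to 1966, 1 against 58 counts over the 3 libraries). Rbpjl, which overlaps the precursor gene Matn4, was 30.8-fold lower at 1 µM (95% interval 8.23 to 259, 2 against 73 counts over the 3 libraries), so reads could be shared. Dmrtb1 and Lims2 stood at 1 and 3 counts against 28 and 76. Inava, a junction protein, had 0, 0.414 and 0 CPM at 1 µM and 3.85, 4.55 and 5.86 CPM at 0.3 µM, a change of −5.06 ± 0.48 (adjusted p = 3.8e-11). Its counts at 1 µM were all in replicate 2, and without that library the fitted value of −8.72 depends on the prior count. Tmem255b, a membrane protein with counts in all 6 libraries, had 0.775, 0.31 and 0.292 CPM at 1 µM and 8.56, 7.16 and 14.8 CPM at 0.3 µM and changed by −4.44 ± 0.40 (adjusted p = 1.1e-11). Of the 338 falls, 55 were on any of the 26 lists and 26 on the precursor or maturing lists.

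The largest rises were smaller in size than the largest falls. The receptor gene Gpr83 had 3.39, 4.65 and 4.08 CPM at 1 µM and 1.5, 1.69 and 0.817 CPM at 0.3 µM, a change of 1.61 ± 0.33 (adjusted p = 0.0015). Its adjusted p was 0.059 without replicate 3 at 0.3 µM. Adamts15, a matrix protease, had 9.68, 17.7 and 18.1 CPM against 4.39, 7.42 and 5.72 CPM and changed by 1.36 ± 0.22 (adjusted p = 4.5e-05). St8sia2 and St8sia4, the enzymes that add polysialic acid to the neural adhesion molecule NCAM, rose by 0.83 ± 0.16 and 0.94 ± 0.19 (adjusted p = 0.00047 and 0.0014). St8sia2 had 26.1, 37 and 47.9 CPM at 1 µM and 14.9, 21.8 and 26 CPM at 0.3 µM, with no overlap, while the ranges of St8sia4 overlapped. The zinc finger gene Zfp804a rose by 0.87 ± 0.18 (adjusted p = 0.0017), and this call, like those of Adamts15, St8sia2 and St8sia4, held in all 6 fits with a library left out. The neuropeptide genes Nts and Penk rose by 1.33 ± 0.35 and 0.84 ± 0.20 (adjusted p = 0.018 and 0.0063), with calls in 1 and 3 of the 6 fits. The remaining genes among the 15 largest, Fam131c, Ptges3l, Krt222, Tox2, Wif1, Rarb, Lingo3 and Galntl6, had changes between 0.83 and 1.15, and each missed the threshold in at least 1 such fit.

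Cytosine arabinoside, a cytidine analog with an arabinose sugar that blocks DNA synthesis, was tested at the same concentrations in the same design, so its step from 0.3 to 1 µM could be compared with that of 5-fluorouracil. The 2 steps share no library. The difference passed for 911 of 15343 genes (5.94%), of which 495 had the more positive change under 5-fluorouracil (3.23%) and 416 the more negative one (2.71%). Cytosine arabinoside's own step called 2191 genes (14.3%), 970 higher and 1221 lower (6.32% and 7.96%). Cytosine arabinoside's step lowered 7 of 17 precursor genes and raised none, with a median of −0.27, where that of 5-fluorouracil lowered 11, with a median of −1.06. The list summed to 497, 677 and 734 CPM at 1 µM and to 1240.3, 1095 and 1163 CPM at 0.3 µM cytosine arabinoside. Pdgfra had 3.4, 7.35 and 2.58 CPM at 1 µM cytosine arabinoside and 2.8, 2.51 and 3.69 CPM at 0.3 µM. Every library at 0.3 µM was thus below those at 1 µM 5-fluorouracil (8.81, 16 and 6.02 CPM). Cytosine arabinoside's Pdgfra step was 0.60 ± 0.29 (adjusted p = 0.17) and the difference −6.03 ± 0.34 (adjusted p = 2.1e-18). Sox10, Gpr17 and Cspg4 averaged 0.0491, 0.162 and 1.78 CPM at 0.3 µM cytosine arabinoside, against 0.566, 0.545 and 4.74 CPM at 1 µM 5-fluorouracil. Cytosine arabinoside's step still lowered Cspg4, by −1.52 ± 0.49 (adjusted p = 0.029), while little was left for it to lower in Pdgfra, Sox10 and Gpr17. All of these genes started from low levels under cytosine arabinoside, so their differences do not rank the compounds.

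On the precursor list the difference passed for 8 of 17 genes, 5 more negative and 3 more positive under 5-fluorouracil. Over all tested genes 2.71% were more negative and 3.23% more positive. Cspg4 averaged 0.566 CPM at 1 µM and 1.78 CPM at 0.3 µM cytosine arabinoside and had the more negative change under 5-fluorouracil, with a difference of −2.07 ± 0.59 (adjusted p = 0.023). Olig2 was among the 3 in the other direction: it had 0.251, 3.04 and 0.882 CPM at 1 µM cytosine arabinoside and 10.4, 7.81 and 13.1 CPM at 0.3 µM, a step of −2.74 ± 0.32, and the difference was 1.68 ± 0.39 (adjusted p = 0.0034). On the maturing list 8 of 25 were more negative and 1 more positive. Ugt8 averaged 8.71 ± 5.49 CPM at 1 µM and 5.55 ± 3.28 CPM at 0.3 µM cytosine arabinoside (SD, n = 3 each), and its difference was −2.63 ± 0.38 (adjusted p = 1.7e-06). Its mean at 1 µM 5-fluorouracil was 4.51 CPM, so its cytosine arabinoside step also started from a low level.

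For astrocyte genes the steps of the 2 compounds differed in the other direction. The difference was more positive under 5-fluorouracil for 12 of 21 and more negative for none, against 3.23% and 2.71% of all tested genes. Cytosine arabinoside's step lowered 19 of them, against 7.96% of all tested genes, with a median of −1.97. That of 5-fluorouracil lowered 5, against 2.2% of all tested genes, with a median of −0.42. Aqp4 had 10.1, 13.5 and 3.87 CPM at 1 µM and 160.2, 78.6 and 109 CPM at 0.3 µM cytosine arabinoside, a step of −3.65 ± 0.34, and the difference from 5-fluorouracil was 2.63 ± 0.44 (adjusted p = 3.2e-05). The glutamate transporter Slc1a3, not called under 5-fluorouracil, had a difference of 1.94 ± 0.26 (adjusted p = 4.1e-07). At 0.3 µM the astrocyte list summed to 2184, 1693 and 1655 CPM under cytosine arabinoside and to 4757, 4522 and 5569 CPM under 5-fluorouracil. The 2 steps thus started from unlike astrocyte levels, so these differences do not rank the compounds either.

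Activity-regulated genes were more negative under 5-fluorouracil for 24 of 33 genes and more positive for none, against 2.71% and 3.23% of all tested genes. Cytosine arabinoside's step raised 29 of them, where 6.32% of all tested genes were called higher. The list's median was 1.91 in that step, against 0.09 and no call for 5-fluorouracil. The transcription factor Npas4, picked for mention after its values were seen, averaged 4.94 CPM at 1 µM and 3.32 CPM at 0.3 µM 5-fluorouracil, against 100.5 CPM at 1 µM and 7.21 CPM at 0.3 µM cytosine arabinoside. Its difference was −3.18 ± 0.52 (adjusted p = 2.3e-05). Scg2 and Sik1 differed by −1.47 ± 0.27 and −1.54 ± 0.25 (adjusted p = 0.00019 and 2.7e-05).

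No difference between the compounds passed for Gad1 or Gad2. The difference for Gad1 was −0.05 ± 0.22, with a 95% interval of −0.49 to 0.40, and for Gad2 it was −0.47 ± 0.20, with −0.87 to −0.06 (adjusted p = 0.95 and 0.2). Over the list 2 genes were more positive and 1, the peptide gene Sst, more negative, against 3.23% and 2.71% of all tested genes. Cytosine arabinoside's own step raised 6 of the 18 GABAergic genes and lowered 1, with a median of 0.43. Over all tested genes that step raised 6.32% and lowered 7.96%. The step of 5-fluorouracil raised 4 of the 18, against 0.437% of all tested genes, with a median of 0.41. The presynaptic genes Cplx1 and Vamp1 had the more positive change under 5-fluorouracil, with differences of 0.58 ± 0.14 and 0.90 ± 0.20 (adjusted p = 0.0069 and 0.0019). On the mitosis list 2 of 29 differed, a share close to the 5.94% of all tested genes. They were Top2a at 1.38 ± 0.42 and Bub1 at −1.77 ± 0.36 (adjusted p = 0.037 and 0.00087). Cytosine arabinoside's own step lowered 10 of the 29 and raised 1, against 7.96% and 6.32% of all tested genes, with a median of −0.65. That of 5-fluorouracil lowered 8, against 2.2% of all tested genes, with a median of −0.74. Without replicate 1 at 1 µM cytosine arabinoside, 297 genes had the more positive change, against 495 with it. GRC327 alone gave 133 more positive and 156 more negative.

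**Figure D5:**
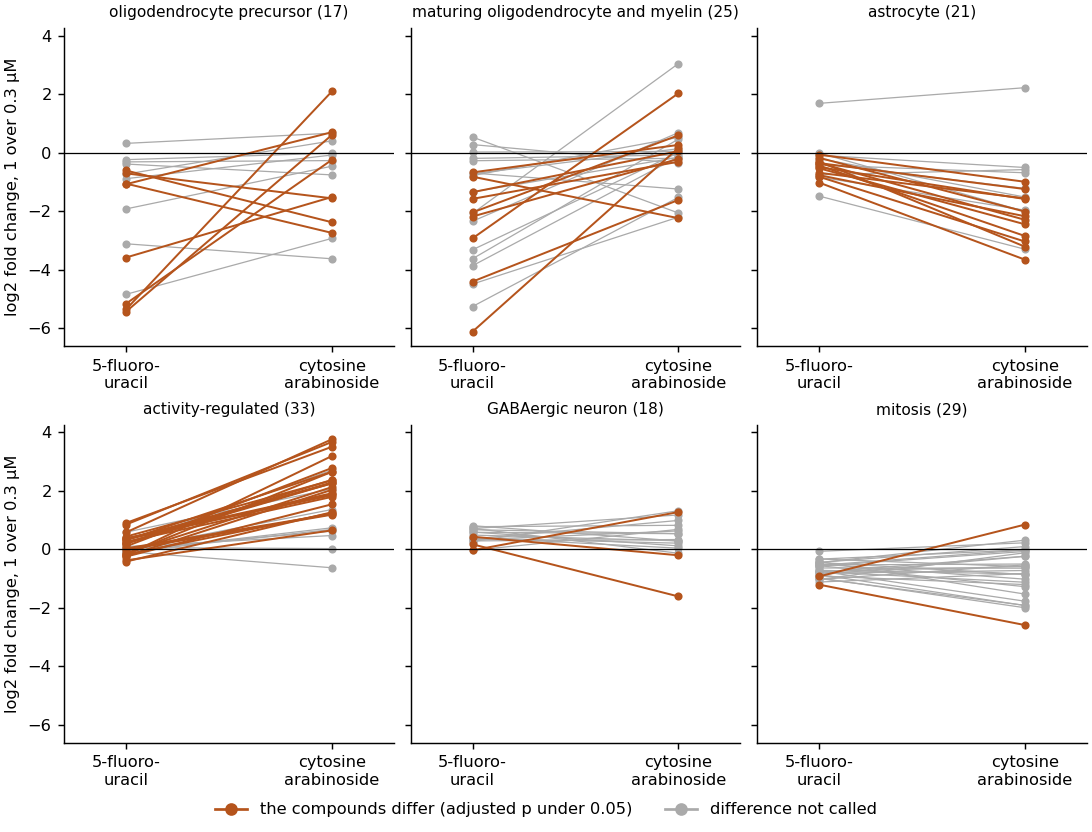
Log2 fold change, 1 over 0.3 µM, of each tested member of 6 gene lists under 5-fluorouracil (left) and cytosine arabinoside (right), joined by a line that is brown where the 2 compounds differed at an adjusted p under 0.05. Astrocyte lines slope down to cytosine arabinoside, activity-regulated lines slope up, and the steepest precursor falls are on the 5-fluorouracil side. Genes with those falls, such as Pdgfra and Sox10, were already low at 0.3 µM cytosine arabinoside. The astrocyte list also summed to less there than at 0.3 µM 5-fluorouracil.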

How the data were processed

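Gene expression was measured by polyA RNA sequencing of primary rat cortical cultures. The authors deposited 1 table of expected counts per gene, 20.58% of which were not whole (tolerance 1e-06), and 1 of normalized values that equal CPM, counts scaled to a common library total, of the same table plus 0.0001. Partek and STAR are named, per the submitters' processing notes, and their versions, roles and settings, the genome build and the strandedness are not given in the sources used here.

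Expected counts were rounded and tested with edgeR 4.0.16 (R 4.3.3): TMM factors (0.8745 to 1.155), filterByExpr with a minimum count of 10, which kept 15343 of 19771 genes, and quasi-likelihood fits over all 71 libraries with 25 groups and a title prefix (GRC321 or GRC327) term per compound. A gene was called where its Benjamini-Hochberg adjusted p over all tested genes was under 0.05. The common biological coefficient of variation was 15.63%. Errors of log2 fold changes are approximate standard errors, taken as the absolute log2 fold change over the square root of the quasi-likelihood F statistic. For genes near 0 counts they need not measure spread. The 95% intervals of log2 values use these errors and 40 residual degrees of freedom. CPM values printed are scaled by the TMM factors. Log2 ratios within a prefix have 0.5 CPM added. Fold ratios of genes with at most 3 counts in a group have exact intervals for counting error only. DESeq2 1.42.0 and limma 3.58.1 (on log2 of the deposited CPM, pseudocount 0.5) were alternatives.

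Named genes were the 15 largest called rises and the 15 largest called falls (gene symbol needed, average log2 CPM not below 0), up to 6 called genes of each list or 2 where none was called, the 5 largest of each difference contrast in each direction, and a set of markers and drug enzymes. Provisional names did not count as symbols, and a few genes are not reported here. Other genes, such as Sox6, Olig1, Vcan, Mog, Mki67, Sst, Nusap1, Ttk and Ttr, were chosen after their values were seen. The lists and comparisons were chosen with earlier results of these data known. Overlaps between gene models came from the deposited coordinates, leaving out models over 2000 kb. Promoters came from RefSeq (GRCr8).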

Additional observations from a re-analysis of the deposited data

Results flagged for a closer look

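Pdgfra, Sox10, Enpp6, Pnlip and Irx1 were singled out because their change from 0.3 to 1 µM 5-fluorouracil differed from their change from 0.1 to 0.3 µM in edgeR's test of the difference. The log2 differences were −5.16 for Pdgfra, −4.799 for Sox10, −4.97 for Enpp6, −4.98 for Pnlip and −5.27 for Irx1, with adjusted p from 5.5e-18 to 0.043. Enpp6, Pnlip and Irx1 each had 1 count over the 3 libraries at 1 µM, so their fitted values depend on the prior count of the fit and give no bound.

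A set of 10 genes was singled out because the step from 0.3 to 1 µM differed between 5-fluorouracil and cytosine arabinoside. More negative under 5-fluorouracil were Pdgfra at −6.03, Enpp6 at −6.27, Sox10 at −7.44, Rbpjl at −6.91 and Evi2a at −6.53, with adjusted p up to 0.041. Under cytosine arabinoside, Sox10 had 0, 0.546 and 0 CPM at 1 µM and 0, 0.147 and 0 CPM at 0.3 µM, and Rbpjl had 0, 0.0607 and 0.0679 CPM and 0, 0 and 0 CPM, and Enpp6 had 0.251, 0.304 and 0.204 CPM and 0, 0.295 and 0.357 CPM, so these 3 differences rest on a few counts under cytosine arabinoside. Evi2a, which lies within the gene Nf1, had 0.0968, 0.724 and 0.583 CPM at 1 µM and 1.6, 1.26 and 2.32 CPM at 0.3 µM 5-fluorouracil, against 14.2, 10.4 and 4.96 CPM at 1 µM and 0.381, 0.737 and 0.119 CPM at 0.3 µM cytosine arabinoside.

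More positive under 5-fluorouracil were Pbk at 5.12, Olfml1 at 4.95, Ndst2 at 4.90, Vstm4 at 4.87 and Apln at 4.18, with adjusted p from 2.1e-09 to 0.0497. Pbk, a mitotic kinase, had 11.7, 7.76 and 7.97 CPM at 1 µM and 10.4, 11.8 and 5.45 CPM at 0.3 µM 5-fluorouracil, against 0, 0.121 and 0 CPM at 1 µM and 2.54, 0.885 and 2.86 CPM at 0.3 µM cytosine arabinoside. Apln, a secreted peptide gene, had 0.754, 0.607 and 0.475 CPM at 1 µM and 17.4, 10 and 11.4 CPM at 0.3 µM cytosine arabinoside. Ndst2 had 7.36, 0.207 and 2.82 CPM at 1 µM and 0.749, 0.169 and 0.0681 CPM at 0.3 µM 5-fluorouracil, with replicate 1 of the 1 µM group far above the others. Vstm4 had no count in any library at 1 µM cytosine arabinoside and at most 0.442 CPM at 0.3 µM, so its fitted difference depends on the prior count of the fit and gives no bound. Those of Pbk and Olfml1 rest on a few counts at 1 µM cytosine arabinoside. Olfml1 overlaps the gene Ppfibp2.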

How the results depend on the processing

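No called gene of the 72 named changed sign under any alternative run. Of the 72, DESeq2 called 71, DESeq2's size factors 72, limma 68, no filter and a single prefix term 66 each, the 6 libraries alone 60, the 5-fluorouracil libraries alone 51, GRC327 alone 44 and the fit with no prefix term 31. Leaving out 1 library left 44 to 62, and 36 were called in each of the 6 such fits. A minimum count of 50 kept 69 in the test, all called.

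The counts of calls moved by more than 1.5 times as follows, and the cause was not tested. With no prefix term, 8 genes rose and 130 fell between 0.3 and 1 µM, none fell between 0.1 and 0.3 µM, the steps differed for 21 genes, and the compounds for 158 more positive and 136 more negative. That fit called 7 precursor, 3 mitosis, 1 GABAergic and 0 astrocyte genes. In GRC327 alone, 20 rose and 201 fell, 1 fell in the lower step, the steps differed for 19, the compounds for 133 more positive and 156 more negative, and 3 astrocyte and 1 mitosis genes were called. In the 5-fluorouracil libraries alone, 35 rose and 213 fell, 0 fell in the lower step, the steps differed for 24, and 2 astrocyte and 5 mitosis genes were called. With no filter 35 rose. In the lower step DESeq2 called 13 falls and a single prefix term 3. The steps differed in the positive direction for 2 genes in DESeq2 and 1 in limma.

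Leaving out 1 library at a time gave 24 to 43 rises and 194 to 291 falls, with 194 falls without replicate 1 at 0.3 µM, 225 without replicate 2 at 1 µM and 199 without replicate 3 at 1 µM. It gave 0 to 7 falls in the lower step, 18 to 48 more negative and 0 to 2 more positive differences of the steps, and 297 to 669 more positive and 281 to 514 more negative differences of the compounds. The lists gave 9 to 11 precursor, 12 to 15 maturing, 1 to 6 astrocyte, 3 to 10 mitosis and 2 to 6 GABAergic genes. A group left with 2 libraries was assumed to vary like the others.

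No paired analysis was possible because the labels carry no replicate numbers and tie no library of 1 concentration to one of another beyond the title prefix, which was already a term of the fit. With 3 libraries per group and 9322900 to 13811200 counts each, genes of a few counts per library have wide intervals, and a gene that was not called is not shown to be equal.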

Other observations

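Among abundant genes that changed between 0.3 and 1 µM and stand on none of the 26 lists, picked after their values were seen, Reep3, an endoplasmic reticulum protein, had 92.1, 74 and 70.6 CPM at 1 µM and 182, 161 and 193 CPM at 0.3 µM, a log2 fold change of −1.18 ± 0.17 (adjusted p = 1.6e-06). The hypoxia factor Epas1 had 139, 161 and 121 CPM at 1 µM and 232, 264 and 249.5 CPM at 0.3 µM and changed by −0.82 ± 0.18 (adjusted p = 0.0025). Both genes were lower in every library at 1 µM than in any at 0.3 µM. The motor Myo6 changed by −0.84 ± 0.18 and the integrin Itgb1 by −0.37 ± 0.10 (adjusted p = 0.0021 and 0.026). With 1 of the 6 libraries left out in turn, Reep3 and Myo6 were called in all 6 fits, Epas1 in 5, its adjusted p reaching 0.068 without replicate 3 at 1 µM, and Itgb1 in 1. Its adjusted p stayed under 0.05 only without replicate 1 at 1 µM, and reached 0.19 without replicate 3 at 1 µM.

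Higher at 1 µM were Erbb4, a neuregulin receptor of interneurons, with 105, 112 and 130.3 CPM at 1 µM and 75.2, 78 and 66.1 CPM at 0.3 µM and a change of 0.66 ± 0.14 (adjusted p = 0.0029), and Lgi2, a secreted synaptic protein, with 467, 284 and 339 CPM at 1 µM and 303, 228 and 169 CPM at 0.3 µM and 0.64 ± 0.16 (adjusted p = 0.0096). The groups did not overlap for Erbb4, which was called in 5 of the 6 fits with a library left out (adjusted p = 0.06 without replicate 3 at 0.3 µM). Those of Lgi2 overlapped, and its call was lost without replicate 1 or replicate 3 at 0.3 µM and without replicate 3 at 1 µM, with an adjusted p up to 0.13. Erbb3, the other neuregulin receptor named above, moved the opposite way. The cytoskeletal genes Crmp1 and Dbn1 changed by 0.35 ± 0.09 and 0.39 ± 0.10 (adjusted p = 0.02 and 0.021). The groups overlapped for both. Crmp1 was called in 1 of the 6 fits with a library left out, that without replicate 1 at 1 µM, and Dbn1 in 2, those without replicate 1 at 1 µM and without replicate 3 at 0.3 µM. Their adjusted p reached 0.14 and 0.14, both without replicate 3 at 1 µM.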
